A study of Mus musculus with 4 samples.

Results

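Globin genes and genes of red cell precursors were examined in leukaemia stem cells from mouse bone marrow, in 4 mRNA libraries. The 10 genes were taken by symbol from a table of 16442 genes, as 6 late genes (Hba-a1, Hba-a2, Hbb-bs, Hbb-bt, Alas2, Fech) and 4 early genes (Car1, Car2, Klf1, Gata1). All 10 symbols were found. They were chosen because the late genes were higher and the early genes lower in the knockout libraries, so their difference between genotypes is described here without a test. The samples were 2 libraries of C57BL/6 mice with leukaemia labelled wild type (WT) and 2 labelled as a knockout of Rreb1 (KO), a gene for a zinc-finger transcription factor. The genotype label of KO replicate 2 names Rreb2, and the extraction text names tumour-associated macrophages, so libraries were grouped by their titles. The sources used here do not give how the leukaemia was started, the age of the mice, any treatment, the part of Rreb1 removed or whether a library came from 1 mouse or a pool. The p-values therefore measure the spread between these libraries, which may be technical.

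Red cells arise from progenitors that first switch on the transcription factors GATA1 and KLF1 and the carbonic anhydrase genes, and later fill with haemoglobin. Haemoglobin joins alpha globin chains, beta globin chains and haem, and erythroid haem synthesis starts with the enzyme encoded by Alas2 and ends with the one encoded by Fech. GATA1 also acts in megakaryocytes, mast cells, basophils and eosinophils, and carbonic anhydrase 2 is made in osteoclasts and other cells as well.

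The promoter sequences of the members show what the globin genes share and how closely the copies resemble each other. RefSeq promoters of GRCm38.p6 were found for 7 of the 10 genes, and the 120 bases before the RefSeq transcript start, which can differ from the GENCODE gene start given further on, are shown. Capitals mark any match on either strand to GATAA (the core of GATA sites), CCNCNCCC (a KLF-type CACCC box), CCAAT or TATAA, and matches can overlap.
Hba-a1 (chr11:32283552-32283671, plus strand): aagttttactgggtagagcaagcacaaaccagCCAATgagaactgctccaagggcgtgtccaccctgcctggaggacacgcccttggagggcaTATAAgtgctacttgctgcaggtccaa
Hba-a2 (chr11:32296372-32296491, plus strand): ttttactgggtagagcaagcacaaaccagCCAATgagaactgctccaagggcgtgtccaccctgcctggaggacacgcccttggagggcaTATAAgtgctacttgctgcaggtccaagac
Hbb-bs (chr7:103827929-103828048, minus strand): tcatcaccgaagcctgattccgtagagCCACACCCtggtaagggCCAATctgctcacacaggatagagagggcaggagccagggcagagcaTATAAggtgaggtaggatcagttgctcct
Hbb-bt (chr7:103813924-103814043, minus strand): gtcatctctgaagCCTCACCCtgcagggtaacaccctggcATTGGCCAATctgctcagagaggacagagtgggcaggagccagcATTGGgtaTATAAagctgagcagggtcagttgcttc
Alas2 (chrX:150547297-150547416, plus strand): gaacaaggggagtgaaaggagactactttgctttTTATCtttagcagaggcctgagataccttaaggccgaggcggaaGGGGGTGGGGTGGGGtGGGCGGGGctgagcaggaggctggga
Klf1 (chr8:84901862-84901981, plus strand): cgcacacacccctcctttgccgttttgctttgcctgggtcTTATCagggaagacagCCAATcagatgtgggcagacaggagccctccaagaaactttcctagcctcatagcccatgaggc
Gata1 (chrX:7967911-7968030, minus strand): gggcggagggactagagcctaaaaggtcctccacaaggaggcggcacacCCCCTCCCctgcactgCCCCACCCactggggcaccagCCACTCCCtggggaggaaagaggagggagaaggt

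All 4 globin promoters held CCAAT and TATAA within these windows, and Alas2 and Gata1 held neither. Among 32851 promoters of the same length in the RefSeq table, 21.3% held CCAAT and 11.8% held TATAA. CCNCNCCC was found in Hbb-bs, Hbb-bt, Alas2 and Gata1 and in 34.6% of all promoters. GATAA was found in Alas2 and Klf1 and in 10.5% of all. These matches are letters in a window and do not show binding. The promoters of Hba-a1 and Hba-a2 had 0 differing bases where they align, with 6 gap bases at the ends because their start positions are offset. Those of Hbb-bs and Hbb-bt were 74.6% identical.

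The transcripts of each globin pair are also close to each other. The coding sequences (GENCODE M21, without the stop codon) of Hba-a1 and Hba-a2 are 426 bases each and differ at 1 base. Those of Hbb-bs and Hbb-bt are 441 bases each and also differ at 1 base. The 30 coding bases around each difference are shown, with the differing base in capitals, since they limit how far reads can be assigned to a copy.
Hba-a1 (coding bases 366 to 395): gcatgcctctctggaCaaattccttgcctc
Hba-a2 (coding bases 366 to 395): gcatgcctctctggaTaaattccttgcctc
Hbb-bs (coding bases 402 to 431): ggtggctggagtggcCgctgccctggctca
Hbb-bt (coding bases 402 to 431): ggtggctggagtggcTgctgccctggctca
Of all stretches of 100 bases in the annotated Hba-a1 transcripts, 63.3% also occur in Hba-a2, and 79.5% of those of Hba-a2 occur in Hba-a1. For Hbb-bs and Hbb-bt the shares are 49.7% and 54.8%. The split of reads within a pair is therefore uncertain, and the sum over a pair is the firmer value.

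Levels are given in FPKM, fragments scaled for exon length and library depth, which allows genes to be compared per length. Depth was 16590830 to 18451251 assigned reads per library, and the 4 globins together took 1039 to 6619 of them. Rreb1, the targeted gene, was at 5.24 and 6.57 FPKM in WT and 6.10 and 6.93 in KO (log2 change 0.13, limma adjusted p = 0.616). A deletion of part of the gene can leave its transcript level as it was, so these values do not check the genotype, and KO and WT stand for the labels. Of genes that mark the labelled cell type, Kit, a receptor of stem and progenitor cells, was present at 3.65 to 7.36 FPKM.

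The alpha globin genes were several times higher in the libraries labelled KO. Hba-a1 (chromosome 11, 32283511 to 32284465) was at 40.6 and 42.4 FPKM in WT and at 197 and 241 in KO. Hba-a2 (chromosome 11, 32296489 to 32297298) was at 17.1 and 14.5 FPKM in WT and at 86.9 and 103 in KO. For both copies the WT libraries were close to each other and far below both KO libraries. The mean level of Hba-a1 was 5.27-fold higher in KO (41.5 ± 1.28 against 219 ± 31.2 FPKM, SD, n = 2 each), a log2(FPKM + 1) difference of 2.36 (SE 0.12). For Hba-a2 it was 6.02-fold higher (15.8 ± 1.84 against 94.9 ± 11.2 FPKM, SD, n = 2 each), with a log2 difference of 2.52 (SE 0.12).

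The beta globin genes showed the same order of libraries. Hbb-bs (chromosome 7, 103826534 to 103828096) was at 21.3 and 18.7 FPKM in WT and at 103 and 122 in KO, 5.62-fold higher by mean level, with a log2(FPKM + 1) difference of 2.43 (SE 0.12). Hbb-bt (chromosome 7, 103812524 to 103813996) was at 9.79 and 6.00 FPKM in WT and at 31.0 and 43.6 in KO, 4.72-fold higher, with a log2 difference of 2.12 (SE 0.24). The WT libraries differed for Hbb-bt by more than for the other globins. The ratio of WT replicate 1 to WT replicate 2 was 1.63 (exact 95% interval 1.21 to 2.22, counting error only), against 1.14 (0.960 to 1.36) for Hbb-bs. These intervals overlap, and the split of reads within the pair is uncertain. Summed over the pair, beta globin was at 31.1 and 24.7 FPKM in WT and at 133.6 and 165.7 in KO. Alpha globin summed to 57.6 and 56.8 FPKM in WT and to 283.5 and 343.6 in KO. The KO libraries lay above the WT libraries for all 4 globins, as for 30.5% of all tested genes, and since the genes were chosen for this nothing is read from it.

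**Figure D1:**
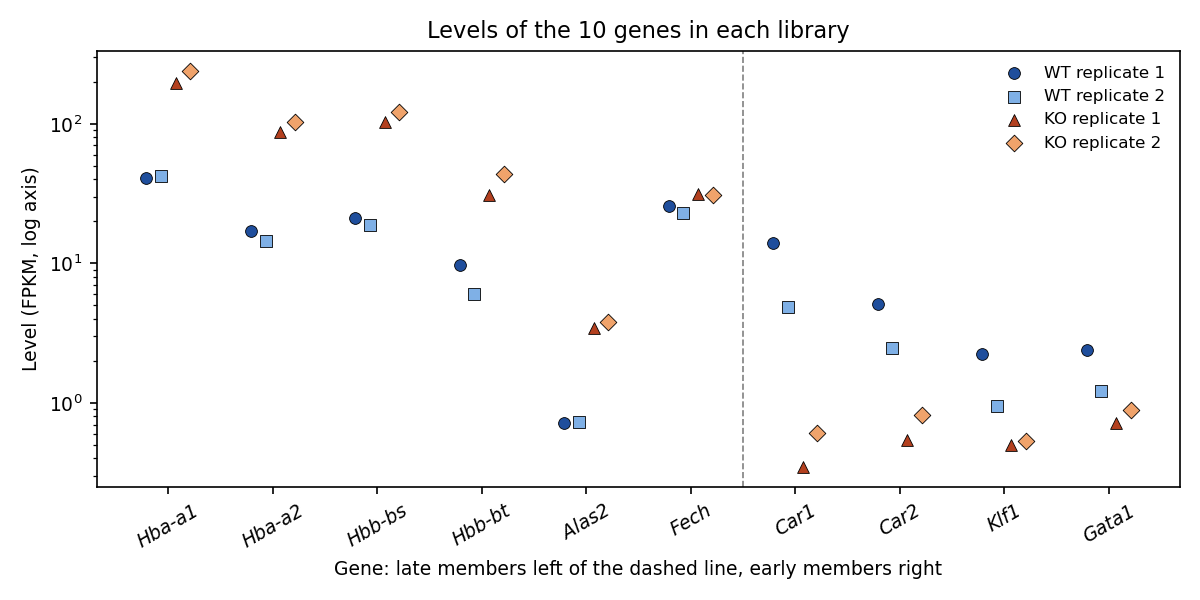
Level of each of the 10 genes in each of the 4 libraries, in FPKM on a log axis, with 1 point per library and late genes left of the dashed line. Hba-a1 reaches 241 FPKM in KO replicate 2, while Car1 goes from 13.9 FPKM in WT replicate 1 to 0.348 in KO replicate 1.

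The balance of the chains is a ratio of genes that were all chosen as higher in KO, and is given as a description. Alpha globin reads were 1.91 times beta globin reads in WT replicate 1 (exact 95% interval 1.69 to 2.15) and 2.37 times in WT replicate 2 (2.08 to 2.72). The same ratios were 2.16 (2.05 to 2.29) and 2.12 (2.02 to 2.24) in KO replicates 1 and 2. Both KO values lay between the WT values, so the groups did not separate by chain balance. With 2 libraries against 2, a two-sided permutation test cannot go below p = 0.33.

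Alas2, the erythroid enzyme for the starting step of haem synthesis, was far less abundant than the globins but differed between the groups by a like factor. The gene lies on chromosome X, 150547375 to 150570638. It was at 0.722 and 0.727 FPKM in WT and at 3.46 and 3.81 in KO, from 32, 29, 153 and 156 reads. The WT libraries were almost equal and both KO libraries lay above them, 5.01-fold by mean level (0.725 ± 0.0040 against 3.63 ± 0.250 FPKM, SD, n = 2 each). The log2(FPKM + 1) difference was 1.42 (SE 0.14). Within each library the summed FPKM of the 4 globins was 123, 112, 121 and 134 times that of Alas2 (WT replicates 1 and 2, then KO replicates 1 and 2). On reads the lowest of these ratios was 35.8 (exact 95% interval 24.8 to 53.8) and the highest 42.4 (36.2 to 50.0). All 4 intervals overlapped. The globins and Alas2 were chosen together as higher in KO and the intervals cover counting error only, so these ratios describe the libraries.

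Fech, the enzyme that inserts iron to complete haem, also outside red cells, was only slightly higher in KO. It was at 25.7 and 22.8 FPKM in WT (mean 24.3 ± 2.05 SD, n = 2) and at 31.4 and 31.0 in KO (31.2 ± 0.219), a log2 difference of 0.35 (SE 0.091). It was the late gene with the smallest difference, 1.29-fold. Its level per length rests on the annotated exons of all its transcripts together, 13838 bp. Alas1, the counterpart of Alas2 in other cells, was at 114 and 110.5 FPKM in WT and at 106 and 100.3 in KO (limma adjusted p = 0.435, log2 change −0.12). Per length, Alas1 was thus far above Alas2 in all 4 libraries.

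**Figure D2:**
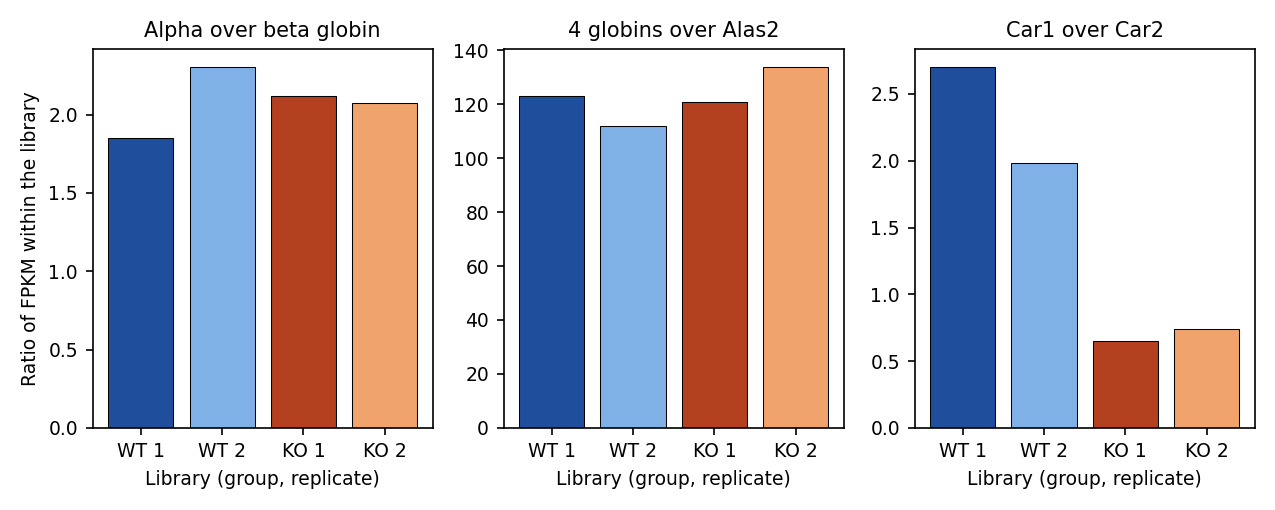
Ratios of FPKM within each library, as bars from 0, for alpha over beta globin, the 4 globins over Alas2, and Car1 over Car2, with 1 bar per library. Alpha over beta stays between 1.85 and 2.30 and globins over Alas2 between 112 and 134, while Car1 over Car2 is 2.70 and 1.98 in WT and 0.647 and 0.742 in KO.

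The early genes were lower in KO and also differed between the WT libraries. Car1, a carbonic anhydrase of early erythroid cells (chromosome 3, 14766216 to 14808368), was at 13.9 and 4.88 FPKM in WT and at 0.348 and 0.611 in KO. These values rest on 320, 101, 8 and 13 reads, with exact 95% Poisson intervals of 3.5 to 15.8 and 6.9 to 22.2 for the KO counts. Every KO value was below both WT values. The mean level was 19.6-fold lower in KO than in WT (0.480 ± 0.186 against 9.39 ± 6.38 FPKM, SD, n = 2 each), and WT replicate 2 alone was 10.2-fold above the KO mean.

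Car2, the widely expressed red cell carbonic anhydrase (chromosome 3, 14886273 to 14900770), was at 5.15 and 2.46 FPKM in WT and at 0.538 and 0.824 in KO. The mean was 5.59-fold lower in KO (0.681 ± 0.202 against 3.81 ± 1.90 FPKM, SD, n = 2 each), and WT replicate 2 alone was 3.62-fold above the KO mean. In WT the level of Car1 was 2.70 (exact 95% interval 2.27 to 3.21) and 1.98 (1.49 to 2.64) times that of Car2. In KO it was 0.647 (0.251 to 1.49) and 0.742 (0.359 to 1.44) times that of Car2. Both genes were chosen for being lower in KO and the intervals cover counting error only, so these ratios describe the libraries and are no comparison of genotypes.

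Klf1, the transcription factor that drives beta globin and other red cell genes (chromosome 8, 84901928 to 84905291), was at 2.23 and 0.943 FPKM in WT and at 0.496 and 0.536 in KO. Gata1, the main erythroid transcription factor (chromosome X, 7959260 to 7978071), was at 2.40 and 1.21 FPKM in WT and at 0.713 and 0.891 in KO. WT replicate 2 lay much nearer to the KO libraries than WT replicate 1 did for both factors. Mean levels were 3.07-fold lower in KO for Klf1 (0.516 ± 0.0284 against 1.58 ± 0.907 FPKM) and 2.25-fold lower for Gata1 (0.802 ± 0.126 against 1.81 ± 0.841, SD, n = 2 each), but WT replicate 2 was 1.83-fold and 1.51-fold above the KO mean. Read counts were 63, 24, 14 and 14 for Klf1 and 108, 49, 32 and 37 for Gata1. On the log2(FPKM + 1) scale, which understates differences of low genes, the differences were −2.67 for Car1 (SE 0.41), −1.46 for Car2 (SE 0.28), −0.72 for Klf1 (SE 0.27) and −0.61 for Gata1 (SE 0.24). Without WT replicate 1 they were −2.00, −1.05, −0.36 and −0.30, and without WT replicate 2 they were −3.34, −1.88, −1.09 and −0.92. The size of each early difference thus depended on which WT library was used. Its direction is fixed by the choice of genes, whose groups do not overlap.

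The WT libraries were also compared with each other, without use of the KO libraries. The level in WT replicate 1 over that in WT replicate 2 was 2.85 for Car1 (exact 95% interval 2.27 to 3.60), 2.09 for Car2 (1.64 to 2.67), 2.36 for Klf1 (1.45 to 3.95) and 1.98 for Gata1 (1.40 to 2.84). For the late genes it was 0.957 for Hba-a1, 1.18 for Hba-a2, 1.14 for Hbb-bs, 0.992 for Alas2 (0.581 to 1.70), 1.13 for Fech and 1.63 for Hbb-bt. All 4 early genes were thus higher in WT replicate 1 beyond counting error, while the late genes other than Hbb-bt and Fech had intervals that include equal levels. The share of all genes that differ in this way between the WT libraries was not computed, so nothing is read from these counts. In the KO pair the 4 globins were 1.18-fold to 1.41-fold higher in replicate 2, and all 4 early intervals included equal levels. These comparisons are between libraries and say nothing of genotype.

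**Figure D3:**
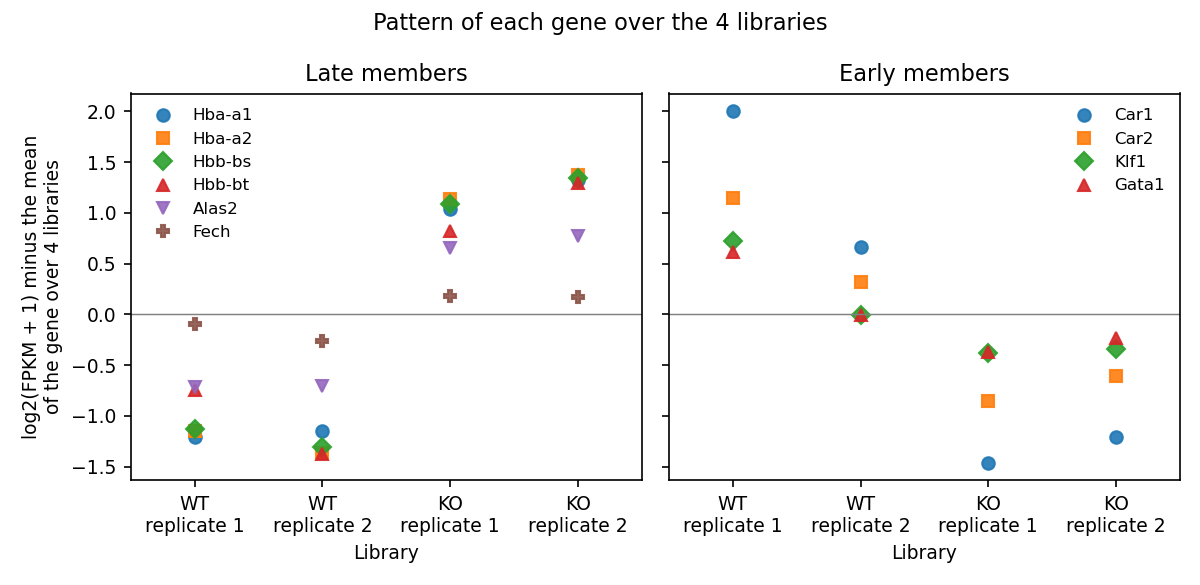
Pattern of each gene over the 4 libraries, as log2(FPKM + 1) minus the mean of the gene, with late genes in the left panel and early genes in the right. Early genes stand highest in WT replicate 1, with WT replicate 2 between it and the KO libraries, and every late gene stands below its mean in both WT libraries and above it in both KO libraries.

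Summed over members, the late genes were at 115 and 105 FPKM in WT and at 452 and 544 in KO, and the early genes at 23.7 and 9.50 in WT and at 2.09 and 2.86 in KO. Late over early was thus 4.87 and 11.1 for WT against 216 and 190.1 for KO. This ratio follows from how the genes were chosen and is given for its size. Groups did not overlap in the chosen direction for any of the 10 genes. Over all 11768 tested genes both KO libraries lay above both WT libraries in 30.5% and below them in 24.9%, and nothing is read from the members' count beside this. All 10 genes had a mean of at least 1 FPKM and entered the fit. Alas2 passed only through its KO level and Car2, Klf1, Gata1 and Car1 only through WT, with Klf1 just inside at a mean of 1.05 FPKM. In bulk RNA, fewer cells of a type and less RNA per cell cannot be told apart.

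Other erythroid genes were examined from 5 lists (76 genes, 55 in the table, 45 tested). By limma 0 of the 45 rose and 0 fell at an adjusted p below 0.05, against 0.603% higher and 0.408% lower of all tested genes. At an unadjusted p below 0.05, 7 were higher (15.6%) and 9 lower (20%), against 11.4% and 9.35% of all. By limma-voom on recovered reads 3 rose (Kit, Slc25a37, Isg20) and 3 fell (Gata2, Gfi1b, Glrx5), against 4.4% and 3% of all genes it tested. The same shares of all genes stand beside the counts of single lists below. Those lists hold 3 to 14 tested genes, and nothing is read from their counts. The median log2 change was 0.008, beside 0.025 over all tested genes. On the log2(FPKM + 1) scale no gene of the 45 had a change beyond 0.74 in size. The members Fech (0.35), Klf1 (−0.72) and Gata1 (−0.61) lay within that size too. The globins, chosen for their difference, lay between 2.12 and 2.52. By limma-voom, Gfi1b was at −1.39 and Kit at 0.885.

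Erythroid transcription factors (10 tested, 0 rose, 0 fell) lay on either side, with 2 higher and 2 lower at an unadjusted p below 0.05 and 0 and 2 called by limma-voom. Gata2, the GATA factor of earlier progenitors and mast cells, was at 19.8 and 16.4 FPKM in WT and at 11.4 and 12.2 in KO (log2 change −0.58, SE 0.11, limma adjusted p = 0.087; limma-voom adjusted p = 0.0058). Gfi1b, a repressor needed by red cell and platelet precursors, was at 1.63 and 1.28 FPKM in WT and at 0.653 and 0.449 in KO (limma adjusted p = 0.144; limma-voom adjusted p = 0.0498). Both genes were lower in both KO libraries than in both WT libraries, as were 3 of the 10 factors (30%) against 24.9% of all tested genes. Another 3 of the 10 (30%) were higher in both KO libraries, against 30.5% of all tested genes, so nothing is read from this order. Ldb1, which bridges enhancers and globin promoters, was at 3.57 and 3.62 FPKM in WT and at 4.67 and 4.75 in KO, and Myb, a factor of progenitors, at 26.1 and 30.5 and at 33.4 and 36.5 (limma adjusted p = 0.193 and 0.199). Lmo2, Nfe2 and E2f2, which many blood cells express, had log2 changes of 0.12, −0.13 and 0.05.

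Among growth and iron-uptake receptors (7 tested, 0 rose, 0 fell, 2 higher at an unadjusted p below 0.05, 1 called by limma-voom), Kit was at 3.65 and 4.25 FPKM in WT and at 7.36 and 7.15 in KO. Its log2 change was 0.74 (SE 0.11) with a limma adjusted p = 0.051, just outside the threshold, and a limma-voom adjusted p = 0.00059. Tfrc, the transferrin receptor, was at 5.15 and 6.72 FPKM in WT and at 7.72 and 8.21 in KO (limma adjusted p = 0.200). Stat5b, a signal carrier of the erythropoietin and other receptors, and Slc11a2, an iron transporter, had log2 changes of 0.16 and −0.24 (limma adjusted p = 0.33 and 0.391).

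Haem synthesis and mitochondrial iron genes (14 tested, 0 rose, 0 fell, median log2 change −0.06) included 1 gene higher and 3 lower at an unadjusted p below 0.05, and limma-voom called 1 higher and 1 lower. Slc25a37, the mitoferrin that carries iron into mitochondria, had a log2 change of 0.38 and Glrx5, a factor for iron-sulphur clusters, of −0.52 (limma adjusted p = 0.159 and 0.154; limma-voom adjusted p = 0.042 and 0.027). Urod, an enzyme in the middle of the pathway, had a log2 change of −0.21 (limma adjusted p = 0.239). Of the 14 genes, 4 (28.6%) were higher and 5 (35.7%) lower in both KO libraries than in both WT libraries, near the 30.5% and 24.9% of all tested genes.

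Late maturation genes (11 tested, 0 rose, 0 fell, median log2 change 0.01) included 2 higher and 2 lower at an unadjusted p below 0.05, and limma-voom called 1 higher. Isg20, an exonuclease, was at 10.2 and 7.97 FPKM in WT and at 12.8 and 14.8 in KO (limma adjusted p = 0.125; limma-voom adjusted p = 0.041). Bnip3l, which clears mitochondria from reticulocytes and acts in other cells, had a log2 change of 0.32, and Mkrn1 and Prdx2 of −0.34 and −0.22 (adjusted p by limma 0.148, 0.181 and 0.236). Bpgm, the enzyme that makes the haemoglobin ligand bisphosphoglycerate, was at 5.98 and 7.07 FPKM in WT and at 7.16 and 7.12 in KO. In the membrane list (3 tested, 0 rose, 0 fell, 2 lower at an unadjusted p below 0.05, 0 by limma-voom) Gypc and Rhd showed log2 changes of −0.36 and −0.41 (limma adjusted p = 0.185 and 0.204), and Epb41 of −0.02.

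**Figure D4:**
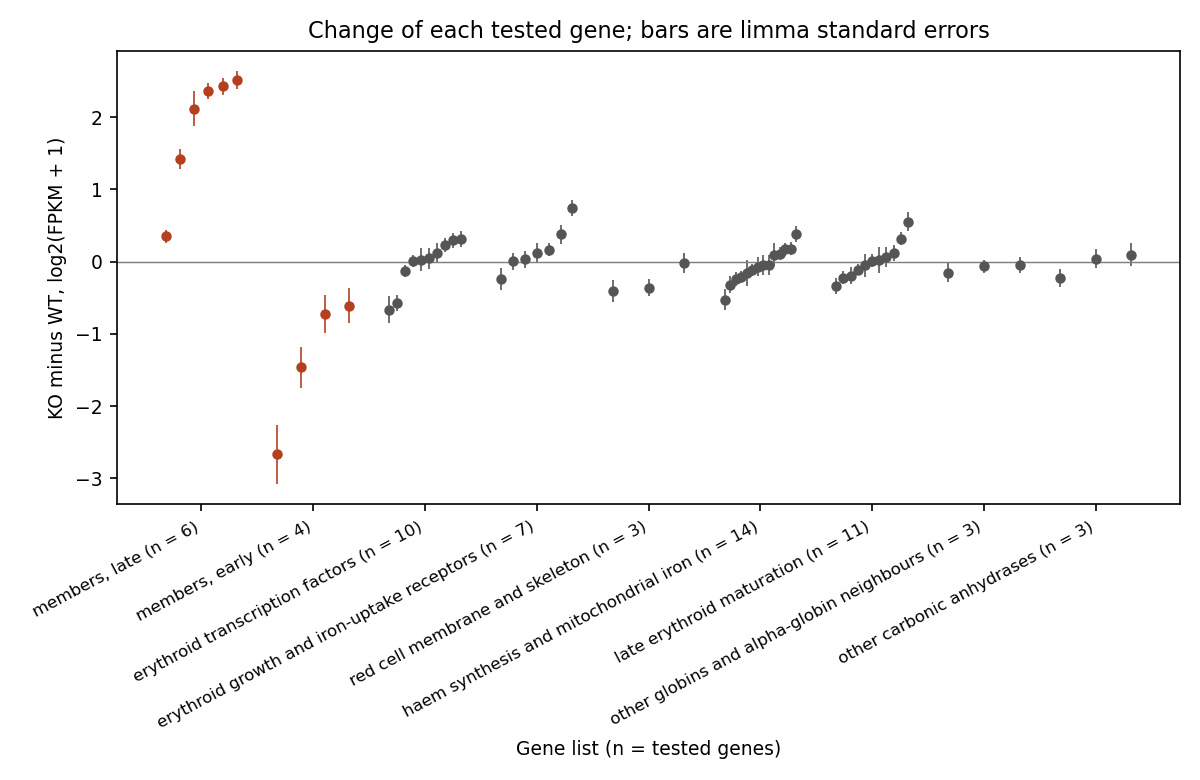
Difference KO minus WT on the log2(FPKM + 1) scale for each tested gene, by list, with 1 point per gene and bars for the limma standard error. Members (red) span −2.67 to 2.52 by choice, and the 45 other listed erythroid genes (the 5 lists after them) span −0.66 to 0.74.

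The 10 listed erythroid genes with a mean under 1 FPKM include genes from the membrane and late maturation lists. Rhag, the Rh-associated glycoprotein of the red cell membrane, had 68 and 36 WT reads against 1 and 12 KO reads. Aqp1, a water channel of red cells and other cells, had 43 and 19 WT reads against 1 and 3 KO reads. Cldn13, a claudin of mouse erythroblasts, had 22 and 7 WT reads against 1 and 1 KO reads. All 3 genes were lower in both KO libraries, and each was higher in WT replicate 1 than in WT replicate 2, as the early members were.

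Epor, the erythropoietin receptor, had 34 and 12 WT reads against 12 and 8 KO reads, so WT replicate 2 and KO replicate 1 had equal counts and differed only through depth (0.364 and 0.328 FPKM). Ermap had 33 and 19 WT reads against 0 and 11 KO reads, and the exact 95% Poisson interval of the count of 0 is 0.0 to 3.7 reads. Slc4a1, the band 3 anion exchanger of the mature membrane, was at 0.488 and 0.197 FPKM in WT and at 0.444 and 0.276 in KO. The groups overlapped for Slc4a1, and also for Tfr2 and Dmtn. Slc4a1 rested on 44 and 16 reads in WT and on 40 and 23 in KO.

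Of these 10 genes, 6 lay lower in both KO libraries than in both WT libraries and 0 lay higher, beside 14% and 26.2% of all genes under that level with any read. Their summed level was 7.50 and 4.07 FPKM in WT and 2.56 and 2.69 in KO. By limma without the filter on level 0 of the 10 were called, against 0.136% higher and 0.0617% lower of all genes. At an unadjusted p below 0.05, 0 were higher and 3 lower, against 6.6% and 3.18% of all genes under that level with any read. Rhag, Aqp1 and Cldn13 then had adjusted p = 0.168, 0.199 and 0.238.

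**Figure D5:**
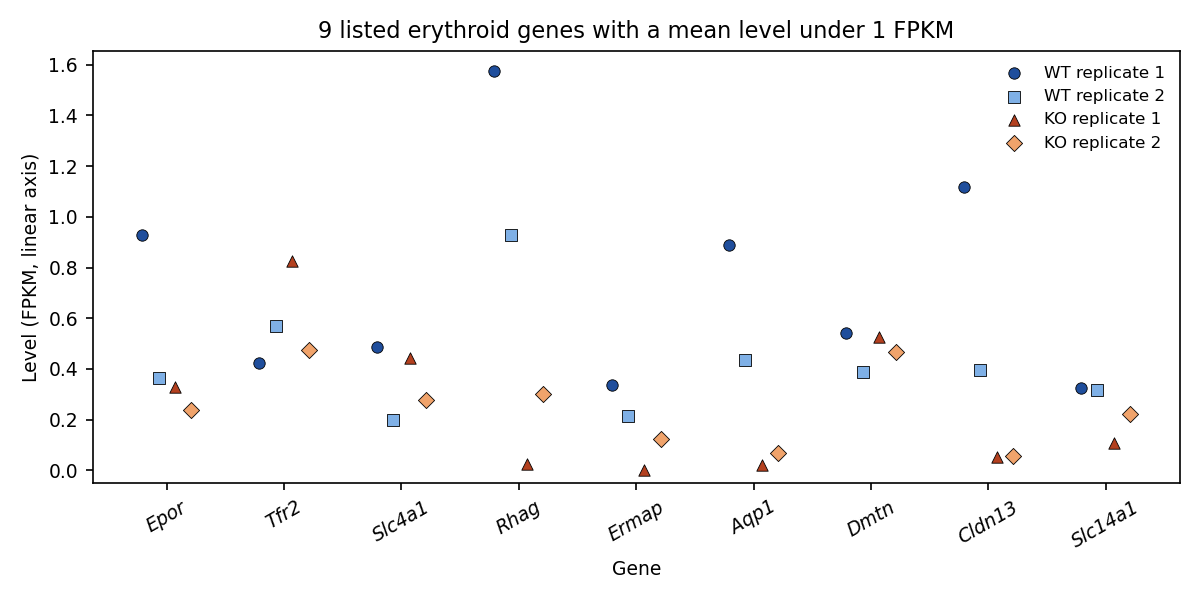
Level in FPKM on a linear axis of 9 of the 10 listed erythroid genes with a mean under 1 FPKM, with 1 point per library. Rhag, Aqp1 and Cldn13 are lower in both KO libraries, and Tfr2, Slc4a1 and Dmtn overlap between the groups.

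Genes beside the alpha globin locus and other carbonic anhydrases were not called. Nprl3, whose introns hold the alpha globin enhancers, was at 4.55 and 5.06 FPKM in WT and at 4.62 and 4.60 in KO (log2 change −0.05, limma adjusted p = 0.828). Snrnp25 and Mpg, which also flank the locus, showed log2 changes of −0.07 and −0.15 (adjusted p = 0.715 and 0.524). The theta globin gene Hbq1a had 15 and 9 WT reads against 6 and 7 KO reads, the opposite order to Hba-a1 and Hba-a2. This order is within counting error for the nearest libraries, since the exact 95% Poisson interval of a count of 7 is 2.8 to 14.4. Of all genes with a mean under 1 FPKM and any read, 14% lay lower in both KO libraries. Of the other carbonic anhydrases Car3, Car9 and Car12 were tested, with log2 changes of −0.23, 0.04 and 0.10 (adjusted p = 0.338, 0.873 and 0.757). Car3 lies between Car1 and Car2 on chromosome 3 (14863512 to 14872523) and was at 3.88 and 4.29 FPKM in WT and at 3.58 and 3.09 in KO. By limma 0 of these 6 genes rose or fell (0 at an unadjusted p below 0.05), and limma-voom called 0.

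Levels of markers of other marrow cells differed between the groups as well, and their part in the values above was not tested. Neutrophil markers (11 of 11 in the table) summed to 1280 and 1305 FPKM in WT and to 2948 and 3533 in KO. By limma 8 of 11 were called higher, against 0.603% of all tested genes. Among them were Mmp9 (log2 change 1.65), Camp (1.62), Ngp (1.39) and Lcn2 (0.94). The other 3 were not called, the lowest with a log2 change of −0.106. Macrophage markers (12 of 13 in the table) summed to 128 and 154 FPKM in WT and to 83.0 and 82.0 in KO. By limma 3 of 9 tested were called lower, against 0.408% of all tested genes. These were the complement genes C1qa, C1qb and C1qc (log2 changes −1.17, −1.30 and −1.44). Of the 9 tested, 1 lay higher in both KO libraries and 7 lower, against 30.5% and 24.9% of all tested genes. Mast cell and basophil markers (8 of 11, 5 tested) summed to 501 and 572 FPKM in WT and to 291 and 281 in KO. Most of that sum was Cpa3, with a mean of 435 FPKM in WT and 217 in KO. The proteases Prss34 and Cpa3 were called lower (limma adjusted p = 0.0018 and 0.024, log2 change −2.14 for Prss34), against 0.408% of all tested genes. Mcpt8, of the same list, lay higher in KO, at 38.4 and 36.1 FPKM in WT and 42.2 and 44.8 in KO (limma adjusted p = 0.217). Eosinophil markers (7 of 9) summed to 219 and 285 FPKM in WT and to 349 and 344 in KO. By limma 2 of 6 tested were called higher, Ear6 and Siglecf (log2 changes 1.66 and 0.71), against 0.603% of all tested genes. The other 4 were not called, the lowest with a log2 change of −0.099.

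Beside Gata1 and Gfi1b, which platelet precursors also use, the megakaryocyte markers (5 of 12) summed to 29.5 and 25.3 FPKM in WT and to 23.6 and 25.5 in KO, with 0 called (1 at an unadjusted p below 0.05, 0 by limma-voom). Within them Pf4, platelet factor 4, had the order of the early members, at 6.24 and 2.42 FPKM in WT and at 0.527 and 1.79 in KO (limma adjusted p = 0.185). The integrin genes Itgb3 and Itga2b, of the same list, lay higher in both KO libraries (log2 changes 0.23 and 0.03). Beside Car2, the osteoclast markers (5 of 9) summed to 31.4 and 33.4 FPKM in WT and to 29.0 and 32.9 in KO. Atp6v0d2, a proton-pump subunit of osteoclasts and macrophages, was called lower among them (limma adjusted p = 0.028). It was 1 of 4 tested, against 0.408% of all tested genes. Nfatc1 and Itgb3, of the same list, lay higher in both KO libraries (log2 changes 0.29 and 0.23), and Acp5 overlapped between the groups (−0.04). None of the markers found in the table was at 0 in all 4 libraries. With either WT library left out, the limma calls of marker genes were lost except those of Mmp9 and Prss34.

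The tested genes nearest in pattern were sought by the distance between centred log2(FPKM + 1) profiles over the 4 libraries, leaving out members and gene models without a symbol. Nearest to the mean of the 4 globins were Ly6a2 (distance 0.291), Mir6362 (0.354), Mir7224 (0.484), Cstdc4 (0.668) and Cstdc5 (0.687), while the globins themselves were at 0.097 to 0.379. Ly6a2, a surface protein gene, was at 32.5 and 31.5 FPKM in WT and at 139.9 and 151 in KO. The miRNA loci rest on 0, 0, 5 and 8 reads for Mir6362 and 0, 0, 3 and 3 for Mir7224. Cstdc4 and Cstdc5, of the stefin group of protease inhibitors, have close relatives among which reads may be shared.

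Nearest to the mean of the 4 early genes were Ighv13-2 (distance 0.115), Oaf (0.315), Igkv9-120 (0.462), Arf6 (0.514) and Ass1 (0.518), while the early genes were at 0.117 to 1.34. Oaf had 2638 and 1368 WT reads against 920 and 844 KO reads, and Arf6, a small GTPase, 829 and 456 against 348 and 275. Ighv13-2 and Igkv9-120 are immunoglobulin variable segments with close relatives, and the first had 51, 23, 8 and 9 reads. These genes were picked for their likeness to the early profile, so sharing its pattern follows from the choice. Ass1 was only slightly higher in WT replicate 1 than in WT replicate 2 (10.35 and 8.714 FPKM). With 4 libraries such likeness is a description.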

How the data were processed

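Values for 16442 genes in 4 libraries came in a single deposited table that names no unit. The tools listed in the submitters' processing notes are featureCounts, HISAT2 2.1.0, DESeq2 and CASAVA, with GRCm38 as the build and no role or order given. The deposited values behaved as FPKM with 1 added (lowest value 1), and 1 was subtracted. Exonic lengths were taken from GENCODE M21 for 97.4% of genes. FPKM times length fell on whole reads within 0.05 for 99.0% to 99.2% of values up to 30 reads, which gave the depths. Klf1 fell on whole reads at 1533 bp, against 1530 bp annotated. Exonic lengths include retained introns of Hba-a1, Hba-a2 and Hbb-bs.

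Because the values were FPKM, differences were tested with limma 3.58.1 (R 4.3.3, trend) on log2(FPKM + 1), keeping 11768 genes whose mean reached 1 FPKM, two-sided, with Benjamini-Hochberg adjustment at 0.05 and group as the only term. The kit description does not mention strand, so reads of overlapping genes cannot be told apart. On simulated reads for 11384 genes this recovered 23.9%, 79.1% and 95.5% of genes changed by a fold of 1.5, 2 and 4. The simulation gave every gene the same low spread between libraries of a group. These shares therefore do not hold for genes that vary more, as the early members did between the WT libraries. Alternatives were a pseudocount of 0.1, no filter, median-ratio scaling, limma-voom on recovered reads, a replicate block and each library left out. Intervals cover counting error only, since reads without molecular identifiers are not independent molecules.

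Members, lists and markers were chosen with earlier results of these data known, and motifs after the promoters were seen. Genes named were all members, called genes and otherwise up to 4 per list by smallest p, and the 5 nearest to each profile. Others (Alas1, Lmo2, Nfe2, E2f2, Bpgm and the genes under 1 FPKM) were chosen after their values were seen. Some listed genes are not reported here by name and enter only the counts and sums of their lists.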

Additional observations from a re-analysis of the deposited data

How the results depend on the processing

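The counts of genes higher and lower in KO (71 and 48) became 22 and 10 without the filter on level, 45 and 30 with median-ratio scaling, 501 and 341 by limma-voom and 40 and 26 with the replicate block. With 1 library left out they ran from 4 to 50 and from 2 to 14, in fits with fewer samples, where the lone library is assumed to vary like the other group. The count of other listed erythroid genes called, 0 and 0, was 3 and 3 by limma-voom and 0 and 0 under the other alternatives run. The 10 members kept their directions in all fits (9 by limma-voom, which left out Klf1), which their choice favours. The log2 ratio of late over early was 4.79 from summed FPKM, 3.33 from median log2(FPKM + 1) changes, and 4.20 to 5.38 with 1 library left out. The difference in log2 alpha over beta ratio was 0.022, and with 1 library left out it ran from −0.135 (WT replicate 1) to 0.179 (WT replicate 2). By limma-voom the members at low level differed by more, with −4.13 for Car1, −2.43 for Car2, −1.11 for Gata1 and 2.30 for Alas2. Of the named other genes under each alternative, 434 values stayed on their side of the threshold with their direction, 88 lost the call, 14 gained it and 9 changed sign. With 1 library left out, log2 changes ran from −0.143 to 0.011 for Snrnp25, −0.105 to 0.190 for Car9, −0.118 to 0.086 for Epb41, −0.111 to 0.016 for Nprl3, −0.016 to 0.213 for Car12 and −0.102 to 0.013 for Acp5, an osteoclast marker. With median-ratio scaling Itga2b, a megakaryocyte integrin, was at −0.006. Scaling moved the median of all tested genes from 0.025 to −0.008. Replicate numbers do not show pairing (r = 0.009 between the deviations of equal numbers, across genes). The cause of the other shifts was not tested. Depth limits Klf1, Alas2 and the genes under 1 FPKM, several of which rest on fewer than 20 reads.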
